A study of Mus musculus with 6 samples.

Results

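The genes described are 10 transcription factors of the AP-1 and EGR families, Fos, Fosb, Fosl1, Fosl2, Jun, Junb, Jund, Atf3, Egr1 and Egr2, chosen by name from the 18182 genes in the deposited files. They were measured by RNA sequencing in cells of the murine tumour line Lewis lung carcinoma (LLC), which had been labelled with red fluorescent protein (RFP). Wild type C57BL/6 mice received LLC-RFP alone (LLC, 3 libraries) or LLC-RFP with BMSCs, the bone marrow-derived mesenchymal stem cells (LLC+BMSC, 3 libraries), under the skin. RFP-positive cells were sorted from the primary tumours, so that the comparison asks what differs in the cancer cells after growth next to BMSCs. Both groups share the RFP-labelled line and the wild type host. The study's methods name 6-week-old female C57BL/6 mice for allografts of LLC-luciferase cells, while the labels of these libraries give neither age nor sex. The labels do not say whether the 3 libraries of a group came from separate tumours, so that the p-values measure the spread between these libraries. The source label of the LLC+BMSC libraries names both LLC and mesenchymal stem cells, while their description names sorted RFP-positive LLC cells.

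AP-1 is a dimer of basic leucine zipper proteins. JUN proteins pair with each other or with FOS proteins, while FOS proteins need a JUN partner, and ATF3 joins the same network as a homodimer or with JUN proteins. FOS, FOSB and EGR1 are classical immediate early factors whose genes are switched on within minutes of growth factor or stress signalling and fall silent again, whereas FOSL1 (FRA-1), FOSL2 (FRA-2) and JUND can be held at steady levels in cancer cells. EGR proteins bind GC-rich sites through zinc fingers and are held in check by the co-repressors NAB1 and NAB2.

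The libraries held 33476347 to 46189113 counted fragments on genes, given as estimated counts that need not be whole. A trend over transcript length ran with the groups. For the shortest of 5 length classes the median log2 deviation from the mean of all libraries was 0.04 to 0.31 in LLC and -0.19 to -0.09 in LLC+BMSC, and for the longest class -0.37 to -0.0033 and 0.10 to 0.18. LLC replicate 3 was the most extreme in both classes. Krt8, an epithelial keratin, lay at 90.3 to 102 FPKM (fragment counts scaled to transcript length and library depth) in LLC and at 108 to 113 FPKM in LLC+BMSC, while Epcam and Cdh1, which mark epithelial cells, stayed at 0.04 FPKM or below in all libraries. Krt18 had 0.03 to 0.13 FPKM in LLC and 0.63 to 0.69 FPKM in LLC+BMSC. The other carcinoma markers listed, Krt7, Krt19, Nkx2-1 and Sftpc, stayed at 0.06 FPKM or below.

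The upstream sequences of the gene that fell most, of the JUN gene that fell and of Fos, which rose, are shown first, because the 3 genes belong to one dimer network and moved in different directions. Each run is the 250 bases before the RefSeq start site on GRCm38.p6, read 5′ to 3′ on the strand of the gene. For Atf3 this start lies inside the gene span of GENCODE M21, whose upstream end is at 191218039. The bases before that end were not searched. Capitals mark matches to TNACGTCA, a site of the CRE type, in Atf3, to TGACNTCA, the form of AP-1 site known from JUN promoters, in Jun, and to the shorter CRE core TGACG in Fos.
Atf3 (chr1:191183334-191183583, minus strand): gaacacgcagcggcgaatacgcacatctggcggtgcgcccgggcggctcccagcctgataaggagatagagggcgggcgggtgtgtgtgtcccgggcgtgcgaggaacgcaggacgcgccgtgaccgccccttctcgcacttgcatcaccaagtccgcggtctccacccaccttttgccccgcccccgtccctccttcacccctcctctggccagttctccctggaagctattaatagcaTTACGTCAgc
Jun (chr4:95052223-95052472, minus strand): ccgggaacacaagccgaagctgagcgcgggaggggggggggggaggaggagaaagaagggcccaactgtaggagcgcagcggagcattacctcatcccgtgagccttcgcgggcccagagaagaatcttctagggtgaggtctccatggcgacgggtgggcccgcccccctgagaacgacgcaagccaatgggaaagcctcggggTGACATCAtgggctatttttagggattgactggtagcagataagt
Fos (chr12:85473640-85473889, plus strand): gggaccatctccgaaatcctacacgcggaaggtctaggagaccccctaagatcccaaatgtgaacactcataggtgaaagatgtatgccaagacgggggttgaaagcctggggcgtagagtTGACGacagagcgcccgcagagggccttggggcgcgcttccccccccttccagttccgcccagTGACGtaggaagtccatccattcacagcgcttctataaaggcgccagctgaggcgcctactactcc

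Both strands were searched, and TGACG lies within some matches to the longer forms. The marked matches ran from -10 to -3 before the start site in Atf3, from -45 to -38 in Jun, and from -129 to -125 and -66 to -62 in Fos. TGACG is not particular to Fos among the factors. It was also matched before Fosb and Junb, in some stretches of Egr2 and, on the other strand, within the marked match of Atf3. Of the 32851 upstream stretches of this length that were searched, 2.52% held TNACGTCA, 7.49% held TGACNTCA and 17.8% held TGACG. The classical AP-1 site TGANTCA was in 6.75% of them, and in none of the 12 stretches of the 8 factor genes with an entry. The EGR site GCGNGGGCG, in 4.7% of all stretches, was matched before Fosb and Fosl2. A CArG box, the element bound by SRF and present in 1.47% of all stretches, was matched in 4 of the 5 stretches of Egr2, of which 3 overlap and hold the same match, so that the 4 hold 2 different elements. A match is a description of letters and not a binding site.

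In LLC+BMSC cells 3 of the 10 factors, Egr1, Fos and Fosb, were higher and 3, Atf3, Fosl1 and Jun, were lower, while Fosl2, Junb, Jund and Egr2 did not pass the test. The call of Fosb held only with a transcript model assembled by the authors' pipeline. Egr1 passed the filter on low counts only through its LLC+BMSC libraries, and with at least 10 counts asked of every library it was not tested, which left 2 factors higher. The rises were in genes near the bottom of the expression range and the falls in abundant ones. Atf3 fell 8.88-fold from one of the highest levels of the group, and Fos rose 4.45-fold from 0.53 FPKM. Calls are adjusted p values under 0.05 from edgeR's quasi-likelihood test, adjusted over the 13353 genes tested, all 10 factors among them. Among all tested genes 31.5% were called higher, 31.3% lower and 62.9% in either direction, so that calls of these factors were about as frequent as those of genes at large. Their median log2 fold change was 0.09, beside 0.01 for all tested genes. The FPKM ranges of both groups did not overlap for 7 factors, beside 70.6% of all tested genes, and for each of the 7 the exact permutation test gave a two-sided p of 0.1, the smallest that 3 libraries against 3 allow. In bulk RNA, fewer cells that make a transcript and less of it per cell cannot be told apart.

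**Figure D1:**
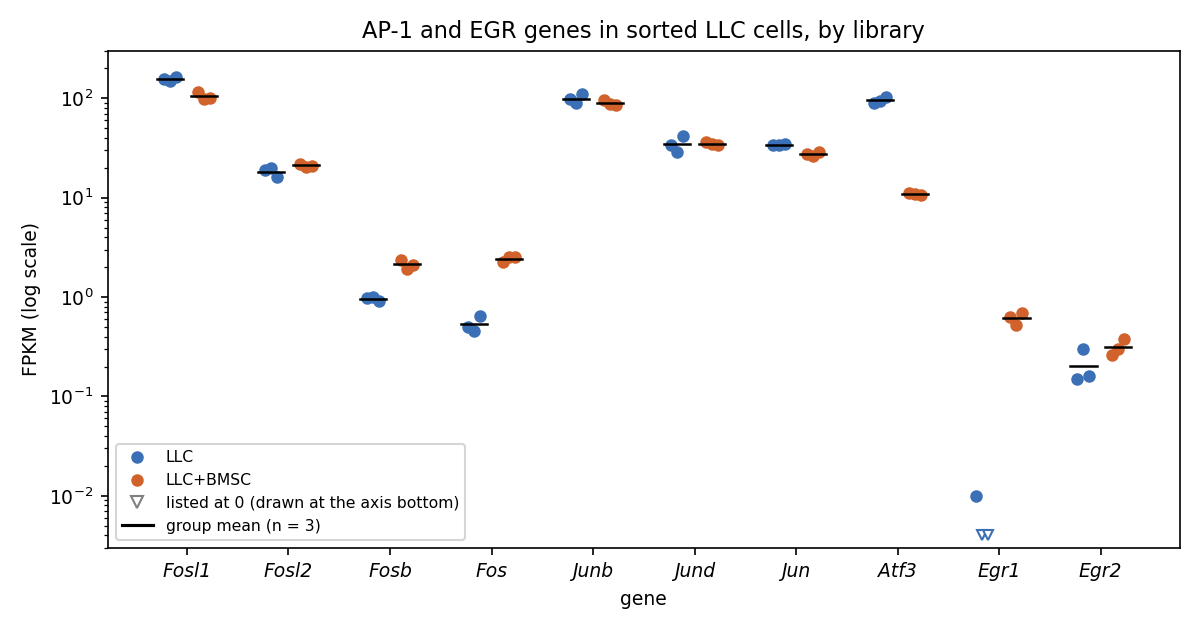
FPKM of each factor (log axis) in the 3 LLC libraries (blue) and the 3 LLC+BMSC libraries (orange); black lines are group means (none is drawn for Egr1 in LLC) and open triangles mark libraries where the gene is listed at 0. Atf3 drops from between 89.6 and 102 to between 10.6 and 11.1 FPKM, and Egr1 goes from 0.01 or less to between 0.52 and 0.69 FPKM.

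Fosl1 was the most abundant of the 10 factors in both groups. In LLC the order of the levels in FPKM was Fosl1, Junb, Atf3, Jund, Jun, Fosl2, Fosb, Fos, Egr2 and Egr1. The libraries of Junb and Atf3 overlapped, as did those of Jund and Jun, so that their order is not fixed. In LLC+BMSC the order was Fosl1, Junb, Jund, Jun, Fosl2, Atf3, Fos, Fosb, Egr1 and Egr2, and only Fos and Fosb overlapped among neighbours. Atf3 moved most in this order. Its level lay above that of 93.3% of the tested genes in LLC and of 54.1% in LLC+BMSC.

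Among the FOS genes, Fos and Fosb rose and Fosl1 fell. Fos (NCBI gene 14281, GRCm38 chr12:85473890-85477273, plus strand, in GENCODE M21) had 0.5, 0.45 and 0.64 FPKM in LLC replicates 1 to 3 and 2.27, 2.5 and 2.51 FPKM in LLC+BMSC replicates 1 to 3. Every LLC+BMSC library lay far above every LLC library. Mean levels were 0.53 ± 0.0985 and 2.43 ± 0.136 FPKM (SD, n = 3 each), from 47, 31 and 60 counted fragments in LLC and 206, 224 and 224 in LLC+BMSC. The log2 fold change was 2.15 (standard error [SE] 0.14, adjusted p = 1.29e-05, edgeR). Even at its higher level Fos lay above only 27.6% of the tested genes.

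Fosb (NCBI gene 14282, chr7:19302696-19310051, minus strand) had 0.97, 0.99 and 0.92 FPKM in LLC and 2.35, 1.92 and 2.11 FPKM in LLC+BMSC. The groups did not overlap, and the log2 fold change was 1.48 (SE 0.10, adjusted p = 1.41e-05, edgeR). However, the files divide Fosb between its RefSeq transcript and a longer model assembled by the authors' pipeline, and these did not move together. The assembled model had 10.9, 13.1 and 14 estimated counts in LLC and 346, 300 and 339 in LLC+BMSC. The RefSeq transcript, in contrast, had 160, 115 and 148 counts in LLC and 158, 114 and 118 in LLC+BMSC. The model thus held 6.38% to 10.3% of the Fosb counts in LLC and 68.6% to 74.1% in LLC+BMSC, and is 1858 bases longer than the RefSeq transcript. With the RefSeq transcript alone counted for Fosb, the log2 fold change was -0.21 (SE 0.14, adjusted p = 0.227, edgeR), so that the rise of Fosb rests on the assembled model. The files give no coordinates or sequence for this model, and whether its added bases belong to Fosb was not tested.

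**Figure D2:**
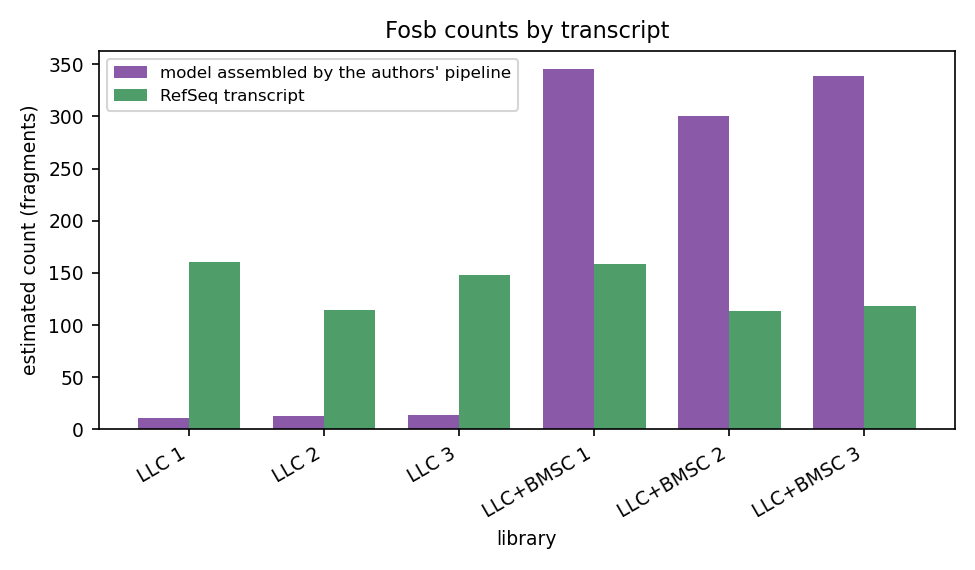
Estimated counts (fragments) of the 2 transcripts listed for Fosb in each library. The assembled model goes from between 10.9 and 14 counts in LLC to between 300 and 346 in LLC+BMSC, while the RefSeq transcript lies between 114 and 160 in all 6 libraries.

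Fosl1 (NCBI gene 14283, chr19:5447547-5455946, plus strand), which encodes the FRA-1 protein often raised in invasive carcinoma cells, had 157, 147 and 164 FPKM in LLC and 115, 99.1 and 99.8 FPKM in LLC+BMSC. All LLC+BMSC libraries were lower than all LLC libraries. Mean levels of 156 ± 8.26 and 104 ± 8.71 FPKM (n = 3 each, SD) resulted, and the log2 fold change was -0.60 (SE 0.080, adjusted p = 0.000424, edgeR), a fall of 1.52-fold. Its counts were not whole in 5 of 6 libraries, and what part of them was shared with other genes was not tested. Fosl2 (NCBI gene 14284, chr5:32135801-32157842, plus strand), the FRA-2 gene, had 18.8, 19.6 and 16.2 FPKM in LLC and 22, 20.5 and 21 FPKM in LLC+BMSC. The groups did not overlap, but the log2 fold change of 0.20 (SE 0.079) did not pass the test (adjusted p = 0.0617, edgeR) and vanished, at -0.015, once each library's trend over transcript length was removed.

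The summed FPKM of the 4 FOS genes went from 176 ± 6.71 in LLC to 130 ± 9.51 in LLC+BMSC (SD, n = 3 each; exact permutation test, two-sided p = 0.1). Fosl1 made up most of this sum in every library. Its share was 88.6%, 87.5% and 90.2% in LLC and 81.2%, 79.9% and 79.6% in LLC+BMSC, a difference of -8.54 percentage points. The share of Fosl2 went from 10.4% ± 1.37 to 16.3% ± 0.616 (SD, n = 3 each). The shares still hold the trend over transcript length, and the transcript of Fosl1 has 1705 bases and that of Fosl2 5886. With this trend removed, the log2 fold changes were -0.44 for Fosl1 and -0.015 for Fosl2 (edgeR). How far the trend shifts the shares was not tested. Fos took 0.3% ± 0.0456 of the sum in LLC and 1.88% ± 0.231 in LLC+BMSC, and Fosb 0.547% ± 0.0405 and 1.63% ± 0.0725 (SD, n = 3 each). The Fosb share includes the assembled model. Its RefSeq transcript alone had 0.903 ± 0.0379 FPKM in LLC and 0.793 ± 0.146 FPKM in LLC+BMSC (SD, n = 3 each), and its share was not tested. None of the 4 shares overlapped between the groups (two-sided exact permutation test of each share, p = 0.1). Fosl1 thus remained the main FOS transcript in LLC+BMSC.

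**Figure D3:**
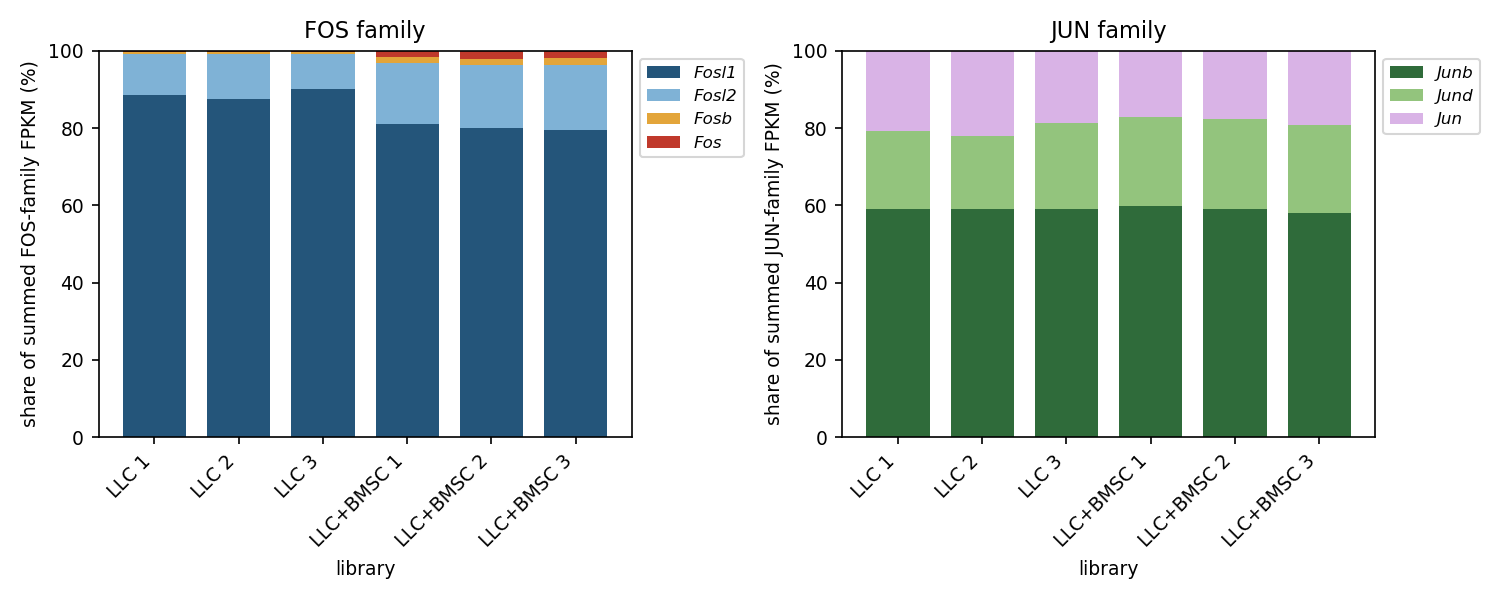
Share of each gene in the summed FPKM of the FOS family (left) and of the JUN family (right), in percent, 1 bar per library. The trend over transcript length was not removed, and Fosb includes its assembled model. Fosl1 goes from between 87.5% and 90.2% in LLC to between 79.6% and 81.2% in LLC+BMSC, while Junb lies between 57.9% and 59.9% in all 6 libraries.

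Among the JUN genes only Jun passed the test, with a small fall. Jun (NCBI gene 16476, chr4:95049034-95052222, minus strand), the founding member of AP-1, had 34.1, 33.6 and 34.9 FPKM in LLC and 27.4, 26.2 and 28.6 FPKM in LLC+BMSC. The libraries of each group lay close together and the groups apart. The log2 fold change was -0.34 (SE 0.058, adjusted p = 0.00144, edgeR). Junb (NCBI gene 16477, chr8:84974484-84978718, minus strand), which encodes a weaker activator than JUN, had 97.1, 89.6 and 111 FPKM in LLC and 94.8, 87.3 and 85.9 FPKM in LLC+BMSC, with overlapping groups. Its log2 fold change was -0.17 (SE 0.090, adjusted p = 0.134, edgeR).

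Jund (NCBI gene 16478, chr8:70698949-70700616, plus strand), the JUN gene usually made at steady rates, had 33.6, 28.5 and 41.9 FPKM in LLC and 36.2, 34.5 and 33.8 FPKM in LLC+BMSC. The LLC libraries spanned all of the LLC+BMSC range, and LLC replicate 3 was the highest. The log2 fold change was -0.01 (SE 0.13, adjusted p = 0.929, edgeR), and 0.15 without that library. The 2 RefSeq transcripts of Jund have the same length and received equal counts. The summed FPKM of the 3 JUN genes was 168 ± 18 in LLC and 152 ± 5.88 in LLC+BMSC (SD, n = 3 each; exact permutation test, two-sided p = 0.2). Junb held 59% ± 0.0761 of this sum in LLC and 58.9% ± 0.964 in LLC+BMSC (SD, n = 3 each), a difference smaller than the spread between replicates. The share of Jund was 20.5% ± 1.8 and 23% ± 0.304 without overlap, and that of Jun 20.5% ± 1.79 and 18.1% ± 1.06 with overlap (SD, n = 3 each; exact permutation test, two-sided p = 0.1 and 0.2). Without LLC replicate 2 these differences were 1.61 and -1.57 percentage points, in place of 2.48 and -2.41.

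Atf3 showed the largest fall of the 10 factors. ATF3 is a stress-induced member of the ATF/CREB group that represses many promoters as a homodimer and acts downstream of ATF4 in the integrated stress response. Atf3 (NCBI gene 11910, chr1:191170296-191218039, minus strand) had 89.6, 93.4 and 102 FPKM in LLC and 11.1, 11 and 10.6 FPKM in LLC+BMSC. The groups were wide apart and the libraries within each close together. Mean levels were 95.1 ± 6.49 and 10.9 ± 0.265 FPKM (SD, n = 3 each), from 5975 to 9020 counted fragments in LLC and 885 to 944 in LLC+BMSC. The log2 fold change was -3.15 (SE 0.075, adjusted p = 1.05e-07, edgeR), and 124 of the 13353 tested genes had a lower one.

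Egr1 rose from almost nothing. EGR1 is an immediate early zinc finger factor induced by growth factor signalling through the ERK kinases. Egr1 (NCBI gene 13653) had 2 counted fragments in LLC replicate 1 and none in replicates 2 and 3, and 85, 69 and 91 in LLC+BMSC replicates 1 to 3. In FPKM it had 0.01 in LLC replicate 1, was listed at 0 in the others, and had 0.63, 0.52 and 0.69 in LLC+BMSC. Over all libraries of a group, 2 fragments stood against 245, a ratio of 115 after scaling for depth with an exact 95% counting interval of 31.4 to 952, which covers counting error only. Egr1 passed the filter on low counts only through its LLC+BMSC libraries, so that its call is given as a description. The fitted log2 fold change was 6.61 and depends on the prior count. It was 9.29 without LLC replicate 1, the only LLC library with a fragment of Egr1.

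Egr2 (NCBI gene 13654, chr10:67535475-67542188, plus strand), known for its role in myelination and in lymphocytes, had 0.15, 0.3 and 0.16 FPKM in LLC and 0.26, 0.3 and 0.38 FPKM in LLC+BMSC, with overlapping groups. LLC replicate 2 was as high as LLC+BMSC replicate 2. The log2 fold change was 0.66 (SE 0.29, adjusted p = 0.0847, edgeR), from 20 to 29 counted fragments in LLC and 34 to 48 in LLC+BMSC. Without LLC replicate 2 it passed the test (adjusted p = 0.012, edgeR).

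**Figure D4:**
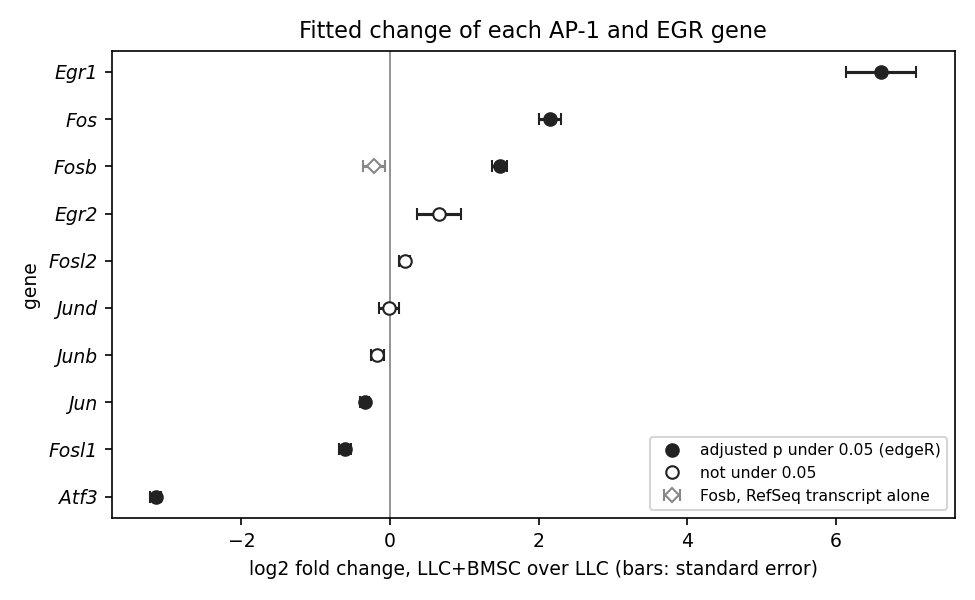
Fitted log2 fold change of each factor, LLC+BMSC over LLC, with its standard error; filled points have an adjusted p under 0.05 with edgeR. Egr1, Fos and Fosb lie to the right at 6.61, 2.15 and 1.48, Jun, Fosl1 and Atf3 to the left at -0.34, -0.60 and -3.15, and the grey diamond gives Fosb from its RefSeq transcript alone, at -0.21.

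Genes listed as markers of other cell types moved with the groups as well, beside 31.5% of all tested genes called higher and 31.3% lower. The summed level of 9 listed neutrophil markers was 0.479 to 0.78 CPM (counts scaled to library depth alone) in LLC and 21.2 to 23.8 CPM in LLC+BMSC, and S100a9 had 0.06 FPKM or less in LLC and 20.6 to 25.8 FPKM in LLC+BMSC. The 7 genes of this list that were tested were called higher, but 6 of them had 3 counts or fewer in every LLC library and were tested only through LLC+BMSC. Ly6g, a defining neutrophil marker, was too low to be tested, with 0.03 to 0.11 FPKM in LLC and 0.03 to 0.08 FPKM in LLC+BMSC. The 11 macrophage markers summed to 24.2 to 29.1 and 30.8 to 33.3 CPM, with 5 of 7 tested genes higher and 1 lower. The lower one was Cd68, at 5.14 to 6.12 FPKM in LLC and 2.69 to 3.4 FPKM in LLC+BMSC. Adgre1, C1qa and C1qc were at 0 in all LLC libraries, and in LLC+BMSC Adgre1 had 0.42 to 0.56 FPKM while C1qa and C1qc had 0.07 FPKM or less. The 12 markers of BMSCs and fibroblasts summed to 366 to 431 and 793 to 845 CPM with 10 of 10 tested genes higher. Of these, Col3a1 and Eng already had 36.8 to 43.6 and 26.6 to 29.8 FPKM in LLC alone. Col1a1 had 0.01 to 0.02 FPKM in LLC and 1.85 to 2.24 FPKM in LLC+BMSC. Cxcl12 and Thy1, too low to be tested, were at 0 in all LLC libraries and at 0.1 FPKM or less in LLC+BMSC. Lymphocyte markers stayed at 0.429 CPM or below and endothelial markers at 1.81 CPM or below in all libraries, and Cd3d and Ms4a1 were listed in none. Erythroid markers summed to 8.66 to 9.04 CPM in LLC and 11.1 to 12 CPM in LLC+BMSC, with 3 of 5 tested genes higher. Beside these values, Fos gained 3.81 CPM, Fosb 6.6 CPM and Egr1 1.82 CPM. The part of other cells in the rises of Fos, Fosb and Egr1 was not tested. Over the same libraries the mean level of Atf3 fell by 162 CPM, that of Fosl1 fell by 87.5 CPM and that of Jun fell by 22.6 CPM.

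Among the relatives of AP-1 in its dimer network, Maf, Mafk and Jdp2 were lower. Of 12 tested genes of 13 in the list, 1 was called higher and 5 lower, beside 31.5% and 31.3% of all tested genes, and the median log2 fold change was -0.09. The one higher was Batf2, with 1 counted fragment or fewer in each LLC library and 0.17 to 0.23 FPKM in LLC+BMSC, through which alone it could be tested. Maf, a large MAF protein gene, fell from 1.33 ± 0.0436 to 0.46 ± 0.01 FPKM, and Mafk, whose small MAF protein lacks an activation domain, from 28.9 ± 0.35 to 14.4 ± 0.384 FPKM (SD, n = 3 each). Jdp2, a repressor that dimerizes with JUN, fell from 25.1 ± 1.37 to 14 ± 0.434 FPKM (SD, n = 3 each). Their log2 fold changes were -1.55, -1.02 and -0.87 (largest adjusted p = 2.13e-05, edgeR).

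The co-repressors of EGR factors rose. Nab1 had 16.2, 15 and 14.4 FPKM in LLC and 36.6, 36.4 and 37.1 FPKM in LLC+BMSC, a log2 fold change of 1.25 (SE 0.063, adjusted p = 3.19e-06, edgeR). Nab2, itself known to be induced by EGR1, had 9.68, 9.95 and 10.1 FPKM in LLC and 13.4, 12.1 and 12.2 FPKM in LLC+BMSC, a log2 fold change of 0.33 (adjusted p = 0.0025, edgeR). Egr3, from 0.4 to 0.52 FPKM in LLC and 0.56 to 0.71 FPKM in LLC+BMSC, changed by 0.43 on the log2 scale (adjusted p = 0.0462, edgeR). Egr4, with 11, 3 and 11 counted fragments in LLC and 2, 2 and 1 in LLC+BMSC, and Wt1, with none in LLC and 1, 5 and 1 in LLC+BMSC, were too low to be tested. All 3 tested genes of this list of 5 were called higher, beside 31.5% of all tested genes.

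Upstream of the factors, in the list of MAP kinases and of the SRF, ELK and CREB proteins that act on immediate early promoters, 7 of 19 tested genes were called higher and 4 lower, shares not far from the 31.5% and 31.3% of all tested genes. Map2k1, which encodes the ERK kinase MEK1, rose from 36.5 ± 1.83 to 83.2 ± 3.82 FPKM, and Mapk9, which encodes the JUN kinase JNK2, from 11.8 ± 0.665 to 23.1 ± 0.315 FPKM (SD, n = 3 each). Their log2 fold changes were 1.17 and 1.10 (adjusted p = 5.42e-06 and 1.89e-05, edgeR). Creb1 had a log2 fold change of 0.41. Lower were Elk1, a partner of SRF, at -0.65, the SRF co-activator Mkl1 at -0.48, and Mapk3, which encodes ERK1, at -0.40 (largest adjusted p = 0.00798, edgeR).

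The other immediate early genes did not follow Fos and Egr1 as a list. Of 28 tested genes of 30 in the files, 5 were called higher and 17 lower, beside 31.5% and 31.3% of all tested genes, with a median log2 fold change of -0.32 beside 0.01. Socs3, a feedback inhibitor of cytokine receptors, rose from 7.53 ± 0.461 to 31.5 ± 1.6 FPKM (SD, n = 3 each), that is by a log2 value of 2.04 (SE 0.074, adjusted p = 6.64e-07, edgeR). Sik1 and Ier3 had log2 fold changes of 0.45 and 0.35. The other 2 called higher, Ctgf and Gem, had 3 counted fragments or fewer in every LLC library and were tested only through LLC+BMSC. Myc, the growth regulator, fell from 683 ± 5.35 to 298 ± 20.7 FPKM (SD, n = 3 each), and Ier5l and Klf4 from 13.6 ± 2.91 to 4.7 ± 0.498 and from 3.58 ± 0.27 to 1.29 ± 0.11 FPKM (SD, n = 3 each). Their log2 fold changes were -1.22, -1.55 and -1.49 (largest adjusted p = 0.000122, edgeR).

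Genes known as targets of AP-1 went both ways. Of 17 tested genes 8 were called higher and 4 lower, beside 31.5% and 31.3% of all tested genes, and the median log2 fold change was 0.18 beside 0.01. Mmp13, a collagenase with an AP-1 site known in its promoter, had 0.82, 0.7 and 0.77 FPKM in LLC and 21.8, 24.9 and 23.7 FPKM in LLC+BMSC, a log2 fold change of 4.91 (SE 0.089, adjusted p = 7.59e-08, edgeR). Mmp9, a gelatinase also made by neutrophils, rose from 0.147 ± 0.0379 to 5.39 ± 0.132 FPKM (SD, n = 3 each), that is by a log2 value of 5.12. Dcn, a matrix proteoglycan that is also in the list of fibroblast markers, rose from 0.11 ± 0.0173 to 6.31 ± 0.223 FPKM (SD, n = 3 each), that is by a log2 value of 5.87. Il6, the cytokine, fell from 9.09 ± 1.06 to 4.37 ± 0.15 FPKM (SD, n = 3 each), and Spp1 and Ccnd1 had log2 fold changes of -0.50 and -0.22 (largest adjusted p of the 3 = 0.0102, edgeR).

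Known EGR1 targets also went both ways, 5 of 9 tested genes higher and 3 lower, beside 31.5% and 31.3% of all tested genes. Their median log2 fold change was 0.47 beside 0.01. Thbs1, which encodes the matrix protein thrombospondin, rose from 1.65 ± 0.358 to 6.56 ± 0.111 FPKM (SD, n = 3 each), that is by a log2 value of 1.97 (adjusted p = 1.83e-05, edgeR). Tgfb1, a growth factor gene, changed by 0.47 on the log2 scale (adjusted p = 0.00302, edgeR). Gdf15, a secreted stress protein that is also known as a target of ATF4 signalling, had 35.8, 34.5 and 47.5 FPKM in LLC and 4.82, 4.78 and 4.56 FPKM in LLC+BMSC. Its log2 fold change of -3.08 (SE 0.14, adjusted p = 1.98e-06, edgeR) was close to that of Atf3 in size. F3, the tissue factor, and Pdgfa fell by 0.60 and 0.51 on the log2 scale.

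**Figure D5:**
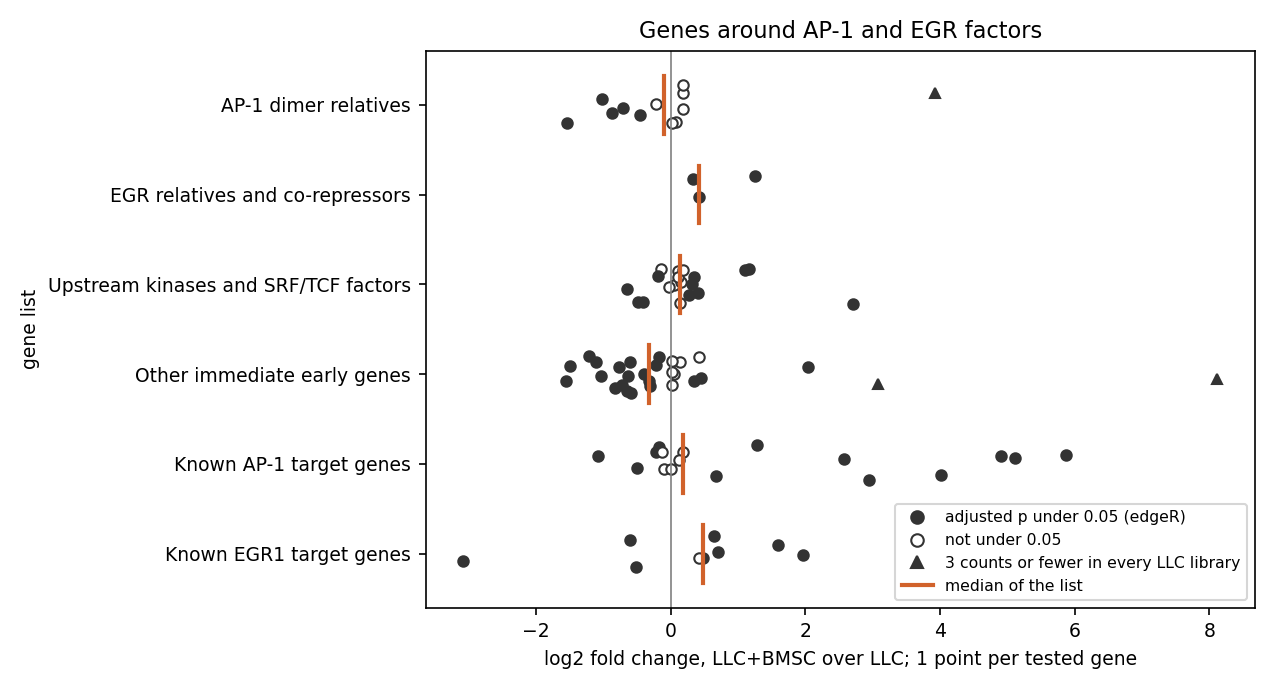
Fitted log2 fold change of every tested gene in the 6 lists around AP-1 and EGR factors, LLC+BMSC over LLC; filled marks have an adjusted p under 0.05 with edgeR, orange lines are list medians, vertical scatter within a list has no meaning, and triangles mark genes with 3 counts or fewer in every LLC library, whose fitted value depends on the prior count. Most other immediate early genes lie left of 0 (median -0.32), and the targets of AP-1 reach 5.87.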

How the data were processed

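RNA of 3 LLC and 3 LLC+BMSC libraries was sequenced. For each library the authors deposited estimated counts of genes and transcripts (not normalized), transcript lengths, and FPKM values, which in their table of all libraries equalled those of the single libraries. Between 21.9% and 23.2% of genes in a library had a count that was not whole. The submitters' processing notes name HISAT, StringTie, Cufflinks, GATK and build mm8, with no roles, and whether counting used strand is not given in the sources used here. A gene not listed in a library was taken as 0. Counts were rounded and tested with edgeR 4.0.16 in R 4.3.3 (TMM, default filter on low counts, quasi-likelihood test, Benjamini-Hochberg adjustment over all genes tested). Standard errors are the log2 fold change over the root of the test statistic. Levels between genes were compared in FPKM only. On simulated counts of this comparison, with a log2 difference of 1 set in 200 genes, edgeR called 193 of 13165 genes, 179 of them changed. The simulated counts held far fewer changed genes than were called in these libraries, and no trend over transcript length. They therefore cannot show how reliable the calls in these libraries are. The alternatives were DESeq2 1.42.0, limma 3.58.1 on log2(FPKM + 1) and log2(FPKM + 0.1), other scalings and filters, removal of the trend over length, a replicate block, summed close libraries and left-out libraries. Coordinates are from GENCODE M21 (GRCm38) and upstream sequences from RefSeq (GRCm38.p6), since the deposited files give neither. Both were used with 1 chromosome left out. Among the upstream stretches searched, 8 of the 10 factors had an entry. Egr1 and Fosl1 had none, and Egr1 is given no coordinates. From each list, the text names up to 3 called genes per direction with the largest change, given a normalized count of 100 or more on average, and all EGR relatives, and 1 gene that the rule named is not reported here. Batf2, Ctgf, Gem, marker genes and motifs named singly were chosen after their values or sequences were seen. The factors and lists were chosen with earlier results of these data known.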

Additional observations from a re-analysis of the deposited data

How the results depend on the processing

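The rise of Fos and the falls of Atf3, Fosl1 and Jun kept their direction and their side of the threshold in every alternative. Egr1 could not be tested with at least 10 counts in every library, which left 2 factors higher, or with at least 1 FPKM, and Egr2 not with at least 1 FPKM. Fosb reversed to -0.21 (log2) with its RefSeq transcript alone, an alternative chosen after seeing the data, which left 2 factors higher. With each library left out in turn, 3 to 5 factors were called higher and 3 lower; the 5 came without LLC replicate 2, when Fosl2 and Egr2 passed. Fosl2 also passed with DESeq2, library size alone, both filtered FPKM fits and without LLC replicate 3, and was -0.015 with the length trend removed and -0.015 with the replicate block and the length trend removed. Jund, never past the threshold, changed sign to 0.0066 with library size alone, 0.024 with log2(FPKM + 1), 0.025 with log2(FPKM + 0.1), 0.024 without the FPKM filter, 0.0037 with the replicate block and 0.0046 with the block and the length trend removed, and ran from -0.14 to 0.15 with libraries left out. With libraries left out, the difference in the Junb share ran from -0.541 to 0.422 percentage points, in the Jund share from 1.61 to 3.41 and in the Jun share from -3.35 to -1.57. The cause of these changes was not tested. The correlations of same-numbered deviations were 0.0762, -0.106 and 0.0572, and those of differently numbered libraries ran from -0.164 to 0.151. They show no pairing by replicate number, but cannot exclude it, because the deviations are centred within only 3 libraries. With the replicate block 4161 genes in all were called higher and 4058 lower, in place of 4210 and 4183, with 3 factors higher and 3 lower. With the closest libraries of each group summed these were 3364 and 3301, again with 3 and 3 factors. At the depth of these libraries Egr1, Egr2 and Fos rest on 224 fragments or fewer per library.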

Other observations

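The genes whose profile over the 6 libraries was most like that of a factor, by the root mean square distance of centred log2 CPM values, were the following. For Fos they were Pid1, Lcn2 and Coro1a, at distances of 0.0948, 0.0962 and 0.1. Lcn2, which encodes a secreted iron-carrier protein, had 13.6 to 17.1 FPKM in LLC and 63.9 to 69.6 FPKM in LLC+BMSC. Coro1a, an actin regulator typical of blood cells, had 0.3 to 0.52 and 1.62 to 1.81 FPKM. For Egr1 they were Ifit3b, Lcp1 and Tnf, at distances of 0.165, 0.199 and 0.219. Tnf, an inflammatory cytokine, had 0.03 FPKM in LLC replicate 1, was listed at 0 in LLC replicates 2 and 3, and had 1.04 to 1.39 FPKM in LLC+BMSC. For Jun they were Zscan21, Rrp8 and Dnajb6, at distances of 0.0192, 0.0292 and 0.0301, all with log2 fold changes between -0.35 and -0.33. The 6 points are the libraries themselves and fall into the 2 groups, so these distances are a description.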
